A study of Homo sapiens with 8 samples.

Results

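The genes described here are 10 enzymes of pyrimidine metabolism on which 5-fluorouracil (5-FU) acts or by which it is activated or degraded: TYMS, DPYD, UMPS, TYMP, UPP1, UCK2, TK1, DUT, RRM1 and RRM2. They were taken by name out of 20098 protein-coding genes of chromosomes 1 to 22 and X, and no threshold on a measured value defines them. Peaks of succinylation of lysine 23 (H3K23su) and acetylation of lysine 27 (H3K27ac) of histone H3 were counted within 2 kb of each TSS, in each gene and within 50 kb either side. CUT&Tag, in which an antibody directs a transposase to chromatin, was run in HCT15, an established human colorectal cancer line. HCT15-Pa is the parental line and is labelled as treated with DMSO, the solvent of the drug. HCT15-FR is the line made resistant to 5-FU, is labelled with 20 µg/mL 5-FU, and was by the study's methods withdrawn from the drug for some days before experiments. Each line gave 2 libraries per mark, which makes 8 peak lists, and the sources describe 1 resistant line, so line and drug exposure cannot be told apart. The labels do not say whether replicates are separate cultures, so any p value measures the spread between libraries, which may be technical.

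5-FU is a prodrug. Orotate phosphoribosyltransferase, an activity of UMPS, or the uridine phosphorylase UPP1 followed by the uridine kinase UCK2, turns it into fluorinated ribonucleotides that enter RNA. Thymidine phosphorylase, TYMP, and thymidine kinase, TK1, lead it to FdUMP, which traps TYMS, the enzyme that makes dTMP from dUMP. DUT hydrolyses dUTP and its fluorinated form, ribonucleotide reductase, built of RRM1 and RRM2, supplies the deoxyribonucleotides, and DPYD takes the first step of 5-FU breakdown. TYMS, TK1, RRM1, RRM2 and DUT are textbook genes of DNA synthesis, and H3K27ac is a mark of active promoters and enhancers.

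The bases that precede the TSSs of 5 members are shown because the values below turn on these starts: TYMS as the drug's target, TK1, RRM1 and RRM2 for the differences in peak length at their starts, and DPYD for its near lack of peaks. They are the 250 bases before the TSS of the canonical GENCODE transcript on GRCh37 (hg19), 5′ to 3′ on the gene's strand. Capitals mark exact matches, on either strand, to the spellings searched: TGACTCA and TGAGTCA (AP-1), TTTCGCGC, TTTGGCGC, TTCCCGCC and TTGGCGCC (E2F), CCAAT (NF-Y), GGGCGGG and CCACACCC (SP/KLF), and TGACGTCA (CRE). The annotation also holds transcripts of TK1, RRM1, RRM2 and DPYD that start further upstream than the starts used here.
TYMS, chr18:657403-657652, plus strand: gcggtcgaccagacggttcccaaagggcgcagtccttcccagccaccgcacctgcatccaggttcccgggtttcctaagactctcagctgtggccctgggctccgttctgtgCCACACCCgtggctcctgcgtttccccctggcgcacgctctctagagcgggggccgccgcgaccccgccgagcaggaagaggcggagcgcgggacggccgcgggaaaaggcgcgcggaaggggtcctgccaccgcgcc
TK1, chr17:76183134-76183383, minus strand: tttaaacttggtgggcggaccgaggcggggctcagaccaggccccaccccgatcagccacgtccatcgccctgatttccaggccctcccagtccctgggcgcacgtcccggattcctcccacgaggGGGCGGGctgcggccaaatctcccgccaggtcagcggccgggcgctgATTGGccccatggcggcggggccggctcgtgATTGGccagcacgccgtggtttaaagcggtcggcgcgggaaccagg
RRM1, chr11:4115779-4116028, plus strand: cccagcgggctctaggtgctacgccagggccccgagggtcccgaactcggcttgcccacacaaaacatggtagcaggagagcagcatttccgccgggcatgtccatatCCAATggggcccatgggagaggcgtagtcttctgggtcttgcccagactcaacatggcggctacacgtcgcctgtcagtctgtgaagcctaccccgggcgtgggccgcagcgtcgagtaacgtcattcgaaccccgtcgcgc
RRM2, chr2:10262616-10262865, plus strand: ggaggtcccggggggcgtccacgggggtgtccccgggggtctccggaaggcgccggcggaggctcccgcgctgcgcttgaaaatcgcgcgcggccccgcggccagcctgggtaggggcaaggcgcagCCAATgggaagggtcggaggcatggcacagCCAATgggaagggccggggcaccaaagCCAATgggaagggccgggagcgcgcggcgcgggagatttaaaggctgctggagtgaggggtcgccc
DPYD, chr1:98386591-98386840, minus strand: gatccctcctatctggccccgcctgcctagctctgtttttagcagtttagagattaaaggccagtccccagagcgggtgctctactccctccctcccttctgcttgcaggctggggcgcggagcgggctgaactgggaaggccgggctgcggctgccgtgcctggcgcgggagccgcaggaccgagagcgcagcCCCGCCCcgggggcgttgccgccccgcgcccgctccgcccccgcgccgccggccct

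CCAAT occurred in the 250 bases of 5 of the 10 members (TYMP, UCK2, TK1, RRM1 and RRM2), against 34.1% of 20094 promoters of the same length. RRM2 held it at 3 places, which began at positions -123, -93 and -66 from the TSS. An SP/KLF spelling occurred in 6 members (TYMS, DPYD, TYMP, UPP1, UCK2 and TK1), against 47.0% of all promoters, and some of these matches overlap, as in UPP1. The CRE spelling occurred in UMPS and in 2.40% of all promoters. No E2F or AP-1 spelling was found in the 10 windows, against 5.93% and 3.07% of all promoters, which says only that these letters are not in these bases. The members' promoters had a median GC content of 70.8%, against 63.2% for all promoters.

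The 8 lists held 65364 to 76676 peaks, and the HCT15-FR lists covered more of the genome, 39.4 to 46.6 Mb against 33.0 to 39.5 Mb. The lists do not record depth, so where a peak is not listed the mark may still be present below what the peak caller could detect. A shorter or missing peak can come from fewer marked cells or from less mark per cell, which cannot be told apart in bulk. Replicates shared 42.6% (HCT15-Pa) and 51.6% (HCT15-FR) of their joint H3K23su peak length and 49.0% and 57.0% for H3K27ac. Libraries of different lines shared 38.0% to 38.1% for H3K23su and 41.8% to 42.5% for H3K27ac. Of 10 markers of colon epithelium, 7 had a TSS peak in all 8 libraries, among them EPCAM, CDH1 and KRT18. Of 7 markers of blood, endothelial, stromal and liver cells, 0 had one in all 8 and 4 (PTPRC, CD3E, COL3A1 and ALB) had none.

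Most members carried both marks at their starts in both lines. H3K23su peaks lay within 2 kb of the TSS in all 4 libraries for 8 of the 10 members, against 54.8% of all genes, and H3K27ac peaks for 9, against 59.2%. The members without H3K23su there were DPYD and TYMP, and the member without an H3K27ac peak there in some of the 4 libraries was DPYD. At TYMP the H3K27ac peak within 2 kb did not reach the TSS. Of 25 other genes of pyrimidine metabolism, 21 and 22 passed the same criterion. Where present in all 4 libraries, H3K23su covered a median of 320 bp before and 952 bp after the TSS over 8 members, against 329 bp and 720 bp over 11014 genes. For H3K27ac the medians were 407 bp before and 751 bp after the TSS over 9 members, against 455 bp and 676 bp over 11891 genes.

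**Figure D1:**
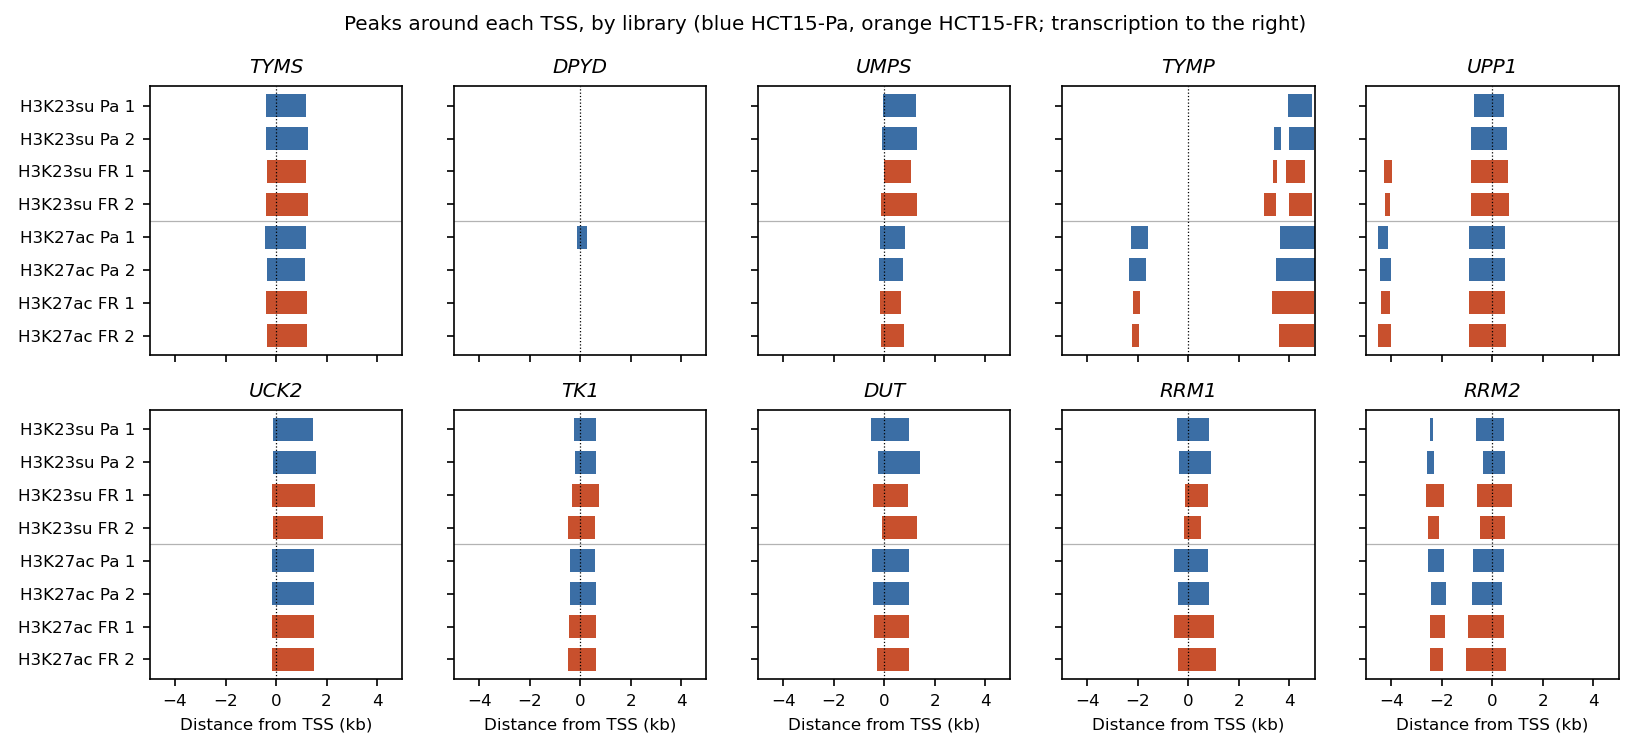
Peaks within 5 kb of each TSS, as bars at their distance from the TSS in kb (horizontal axis) with 1 line for each of the 8 libraries (vertical axis), blue for HCT15-Pa and orange for HCT15-FR, transcription running to the right. DPYD shows 1 H3K27ac peak in 1 HCT15-Pa library and TYMP shows no peak over its TSS, while the other 8 genes have a peak of both marks over or beside the TSS in every library.

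HCT15-FR peaks at TSSs were in general longer, which sets the scale for single genes. Of 13397 genes with an H3K23su peak within 2 kb of the TSS in any library, 74.0% had the greater mean length in HCT15-FR, with a median difference of 149 bp. For H3K27ac it was 62.5% of 14800 genes, with a median of 59.5 bp. Over the 10 members the median difference in length at the TSS was 0 bp for H3K23su and -1.75 bp for H3K27ac, and over all 20098 genes, those without peaks included, it was 0 bp for both. Percentiles of differences given below are also over all 20098 genes, and genes without a peak enter them at 0 bp. The exact permutation test of 2 libraries against 2 cannot go below p = 0.333, so no difference of a single gene could pass the usual threshold, and the smallest p adjusted over all genes was 0.972 for H3K23su at the TSS and 1 for H3K27ac.

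TYMS, the target of FdUMP, had much the same peak at its start in every library. H3K23su covered 1589 and 1649 bp in HCT15-Pa and 1564 and 1628 bp in HCT15-FR within 2 kb of the TSS (chromosome 18, gene from 657653 to 673578). The groups overlapped, and the mean difference of -23 bp was within the spread between libraries (exact permutation p = 0.667, two-sided) and lay between -55 and 9 bp with 1 library left out. H3K27ac covered 1654 and 1533 bp against 1625 and 1590 bp, and again the groups overlapped. The genes most like TYMS in these 8 lengths, by the smallest sum of absolute differences over the 8 libraries, were PATL1 (286 bp), PLLP (322 bp) and KIAA2026 (325 bp).

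In the order of H3K23su lengths at the TSS in HCT15-Pa, UCK2, TYMS and DUT stood highest with ranges that overlapped, from 1510 to 1673 bp. UMPS, UPP1 and RRM1 followed, each neighbour overlapping the next, and RRM2 and TK1 lay lowest, with libraries between 840 and 1106 bp. In HCT15-FR, UCK2 was again highest with 1701 and 1979 bp and did not overlap TYMS, the next. RRM1 was lowest there of the 8 with a peak, with 903 and 675 bp, and did not overlap its neighbour TK1.

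RRM1, the large subunit of ribonucleotide reductase, differed between the lines in opposite directions for the marks. Its H3K23su length at the TSS was 1286 and 1277 bp in HCT15-Pa and 903 and 675 bp in HCT15-FR, and the groups did not overlap. The means were 1282 ± 6.36 and 789 ± 161 bp (SD, n = 2 each), a difference of -492.5 bp, at percentile 1.44 of the differences over all genes (exact permutation p = 0.333, the smallest possible). The upstream edges lay at -464 and -376 bp from the TSS in HCT15-Pa and at -119 and -175 bp in HCT15-FR. H3K27ac was longer instead, with 1349 and 1216 bp in HCT15-Pa against 1574 and 1495 bp in HCT15-FR. That difference of 252 bp was at percentile 86.2 of all genes (exact permutation p = 0.333), and whether the marks differ from each other was not tested. H3K27ac peaks were called with the broad option and H3K23su peaks without it.

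Peak length and peak score did not move together at RRM1. The score in the lists is the −log10 of the MACS2 P value, here given as a percentile of its own list. The H3K23su peak of RRM1 stood at percentiles 64.5 and 71.6 in HCT15-Pa and 78.1 and 77.6 in HCT15-FR, higher in both HCT15-FR libraries although the peak was shorter. The H3K27ac peak stood at 98.4 and 96.7 in HCT15-Pa and at 87.7 and 96.5 in HCT15-FR.

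RRM2, the small subunit, had longer peaks in HCT15-FR for both marks on average. H3K27ac at the TSS covered 1291 and 1374 bp in HCT15-Pa and 1555 and 1649 bp in HCT15-FR without overlap, a difference of 269.5 bp at percentile 87.5 of all genes. H3K23su covered 1106 and 862 bp against 1443 and 987 bp, and those groups overlapped. The H3K23su score percentile was 75.5 and 88.3 in HCT15-Pa and 89.5 and 97.0 in HCT15-FR, while the H3K27ac percentile was 95.2 and 93.1 against 90.4 and 85.1.

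**Figure D2:**
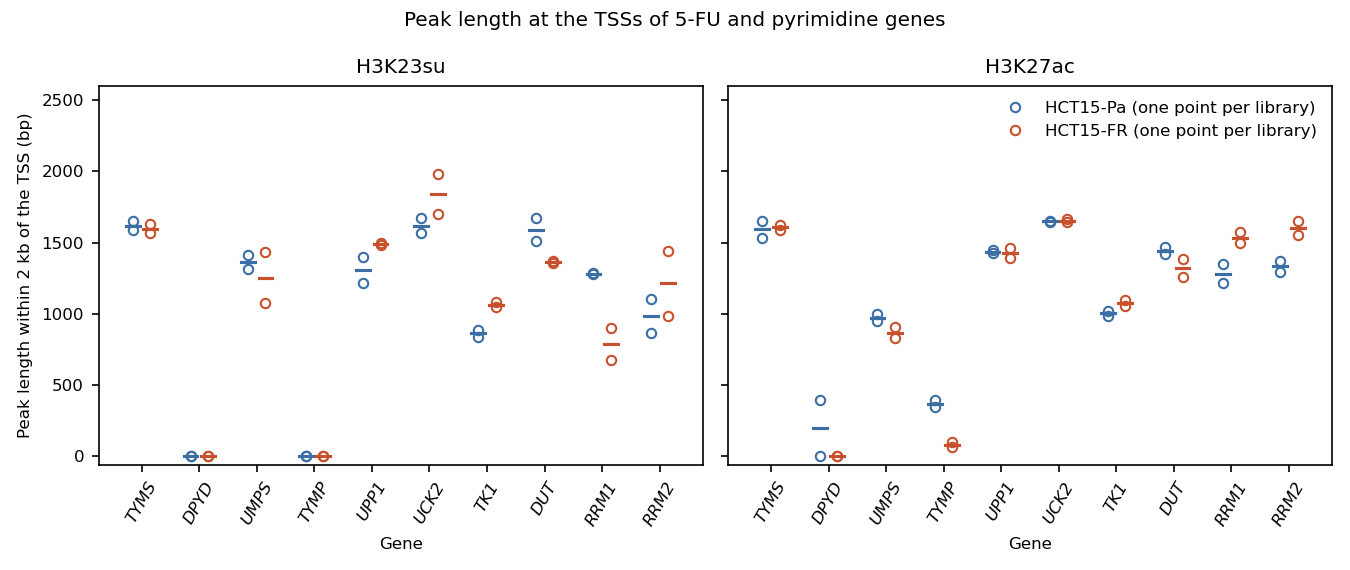
Peak length within 2 kb of the TSS in bp (vertical axis) for the 10 genes (horizontal axis), with 1 point per library and short bars at the means of 2 libraries, blue for HCT15-Pa and orange for HCT15-FR, H3K23su on the left and H3K27ac on the right. RRM1 shows the opposite order of the lines for the marks, 1282 against 789 bp for H3K23su and 1283 against 1535 bp for H3K27ac.

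DUT, which keeps uracil out of DNA by hydrolysing dUTP, had the shorter peak in HCT15-FR for both marks. H3K23su covered 1510 and 1672 bp in HCT15-Pa and 1370 and 1360 bp in HCT15-FR, and H3K27ac 1467 and 1420 bp against 1384 and 1258 bp. Neither pair of groups overlapped, and the differences of -226 and -122.5 bp were at percentiles 4.53 and 13.5 of all genes. They were -145 bp for H3K23su without HCT15-Pa replicate 2, and for H3K27ac -185.5 bp without HCT15-FR replicate 1 and -59.5 bp without HCT15-FR replicate 2. DUT held the highest mean H3K27ac score percentile of the members at its start, 98.2, and its libraries overlapped between the lines.

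TK1, UCK2 and UPP1, enzymes of nucleoside salvage, had longer H3K23su peaks at the TSS in HCT15-FR. TK1 covered 884 and 840 bp in HCT15-Pa and 1050 and 1080 bp in HCT15-FR. UCK2 covered 1567 and 1673 bp against 1701 and 1979 bp. UPP1 covered 1219 and 1402 bp against 1484 and 1498 bp. No pair of groups overlapped, and the differences were 203, 220 and 180.5 bp. They were at percentiles 72.0, 73.7 and 69.9 of all genes, those without a peak included. Among the 13397 genes with an H3K23su peak at the TSS, 74.0% were longer in HCT15-FR, and the median difference was 149 bp. The UPP1 difference was 89 bp without HCT15-Pa replicate 1 and 272 bp without HCT15-Pa replicate 2, and the UCK2 difference 359 bp without HCT15-FR replicate 1 and 81 bp without HCT15-FR replicate 2. H3K27ac was longer in both HCT15-FR libraries at TK1 (986 and 1021 against 1058 and 1097 bp), while the lines overlapped at UCK2 and UPP1.

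UMPS, the last enzyme of de novo UMP synthesis, had H3K23su lengths of 1318 and 1414 bp in HCT15-Pa and 1073 and 1433 bp in HCT15-FR, which overlapped. Its H3K27ac peak was shorter in both HCT15-FR libraries, 831 and 906 bp against 996 and 951 bp, yet its H3K27ac score percentile was higher, 95.8 and 94.7 against 89.9 and 89.2.

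TYMP had no peak of either mark over its TSS. The H3K27ac within 2 kb belonged to a peak whose near edge lay between -1606 and -1938 bp from the TSS and which covered 395 and 343 bp of the window in HCT15-Pa and 100 and 63 bp in HCT15-FR. The groups did not overlap (difference -287.5 bp, percentile 5.32), and the score percentiles of this peak were 47.7 and 42.5 against 9.21 and 15.7. Its merged region was centred in a coding exon of ODF3B, 512 bp from the TSS of ODF3B. In the stronger 50% of each list the difference at TYMP was 0 bp. In the TYMP gene, H3K23su covered 303 and 563 bp in HCT15-Pa and 531 and 742 bp in HCT15-FR, with overlap. TYMP lies on chromosome 22 (50964181 to 50968461) among 12 other protein-coding genes of its window, so a peak there cannot be assigned to it alone.

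DPYD, which starts 5-FU breakdown, was nearly without peaks. No H3K23su peak lay in the gene or within 50 kb in any of the 4 libraries, over a window of 1017 kb on chromosome 1 (gene from 97543299 to 98460556). Such windows made up 7.30% of all genes, and 14 of the 92 genes with windows at least as long. H3K27ac gave 2 peaks (856 bp in all) in 1 HCT15-Pa library, of which 1 of 395 bp overlay the TSS at percentile 43.1 of its list, and 1 peak of 146 bp in the other. No H3K27ac peak was listed in either HCT15-FR library.

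Counted over the members, H3K23su length at the TSS was higher in both HCT15-FR libraries than in both HCT15-Pa libraries for 3 (UPP1, UCK2 and TK1), against 28.7% of all genes, and lower for 2 (DUT and RRM1), against 5.54%. H3K27ac was higher for 3 (TK1, RRM1 and RRM2), against 23.1%, and lower for 3 (UMPS, TYMP and DUT), against 9.36%. TYMP enters this count through a peak near ODF3B that does not reach the TYMP TSS. Of the 25 other genes of the pathway, 11 were higher and 2 lower for H3K23su, and 7 higher and 4 lower for H3K27ac. The number of members lower in HCT15-FR was 4 for H3K23su without HCT15-FR replicate 2, and 5 for H3K27ac without HCT15-Pa replicate 2. Leaving out a library also changes the share of all genes, so these counts are not to be set against the shares above. Without HCT15-Pa replicate 1, H3K23su was lower for 3 members and 12.3% of all genes.

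**Figure D3:**
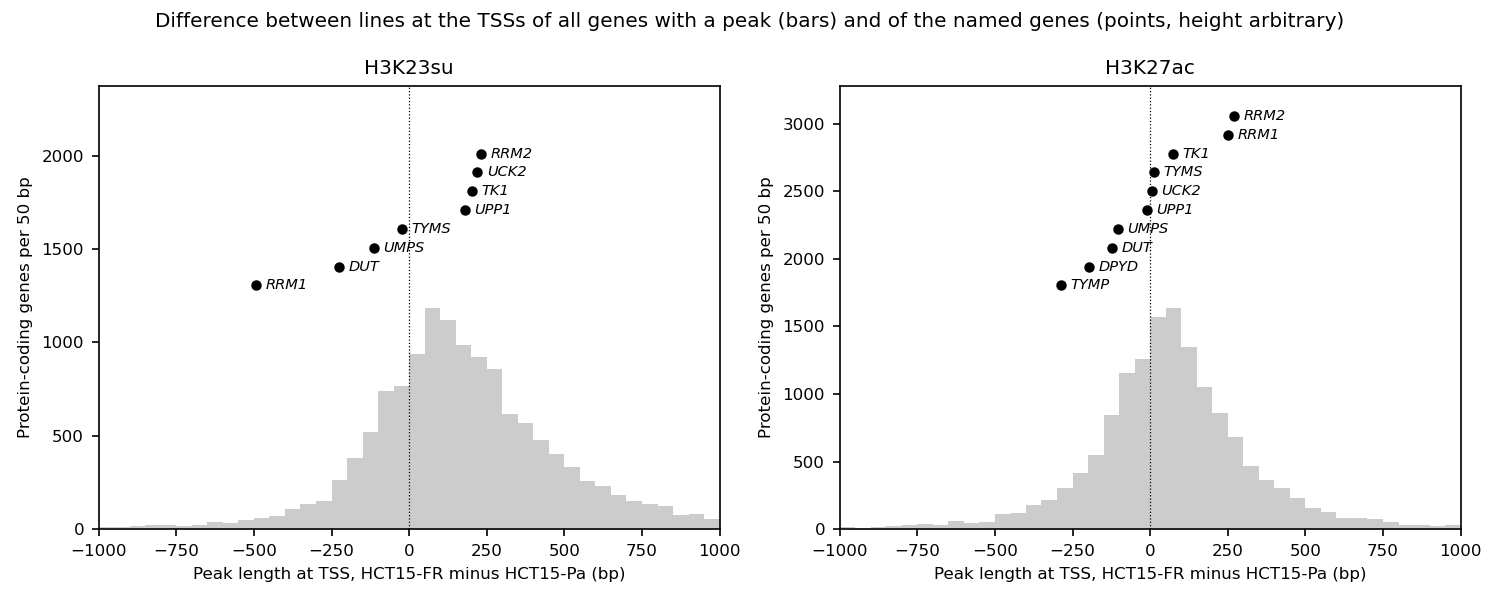
Difference in peak length within 2 kb of the TSS, HCT15-FR minus HCT15-Pa in bp (horizontal axis), as grey bars of 50 bp for all genes with a peak (vertical axis, number of genes) and as labelled points for the named genes, whose height has no meaning. Differences beyond 1000 bp, 274 genes for H3K23su and 135 for H3K27ac, lie outside the axes. RRM1 lies on the left for H3K23su, at -492.5 bp, and on the right for H3K27ac, at 252 bp.

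Beyond the starts, overlapping peaks of the 4 libraries of a mark were merged into regions, called FR-only where both HCT15-FR libraries and no HCT15-Pa library had a peak, Pa-only for the reverse, and shared where all 4 had one. FR-only H3K23su regions lay in or near 5 members (TYMS, UMPS, UPP1, TK1 and RRM2), against 48.8% of all genes. Pa-only H3K23su regions lay in or near 6 (TYMP, UCK2, TK1, DUT, RRM1 and RRM2), against 35.6%. FR-only H3K27ac regions lay near 4 (TYMS, UMPS, RRM1 and RRM2), against 53.6%, and Pa-only H3K27ac regions near 7 (UMPS, TYMP, UCK2, TK1, DUT, RRM1 and RRM2), against 33.8%. The count of 4 was 8 without HCT15-FR replicate 1 and 7 without HCT15-FR replicate 2, when 77.8% and 76.4% of all genes were called. Of the 25 other pathway genes, 11 had an FR-only and 8 a Pa-only H3K23su region, and 12 and 7 had such regions of H3K27ac.

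Of 121 H3K23su regions of the members, 6 were FR-only, 7 Pa-only and 40 shared, which is 4.96%, 5.79% and 33.1%. Over all 122252 regions the shares were 7.96%, 4.98% and 23.9%. Of 146 H3K27ac regions, 11 were FR-only, 11 Pa-only and 40 shared (7.53%, 7.53% and 27.4%), against 9.10%, 4.46% and 25.3% of 133421 regions. None of the line-specific regions lay within 2 kb of a member's TSS. No share over all line-specific regions is given for this, so it is a description only.

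**Figure D4:**
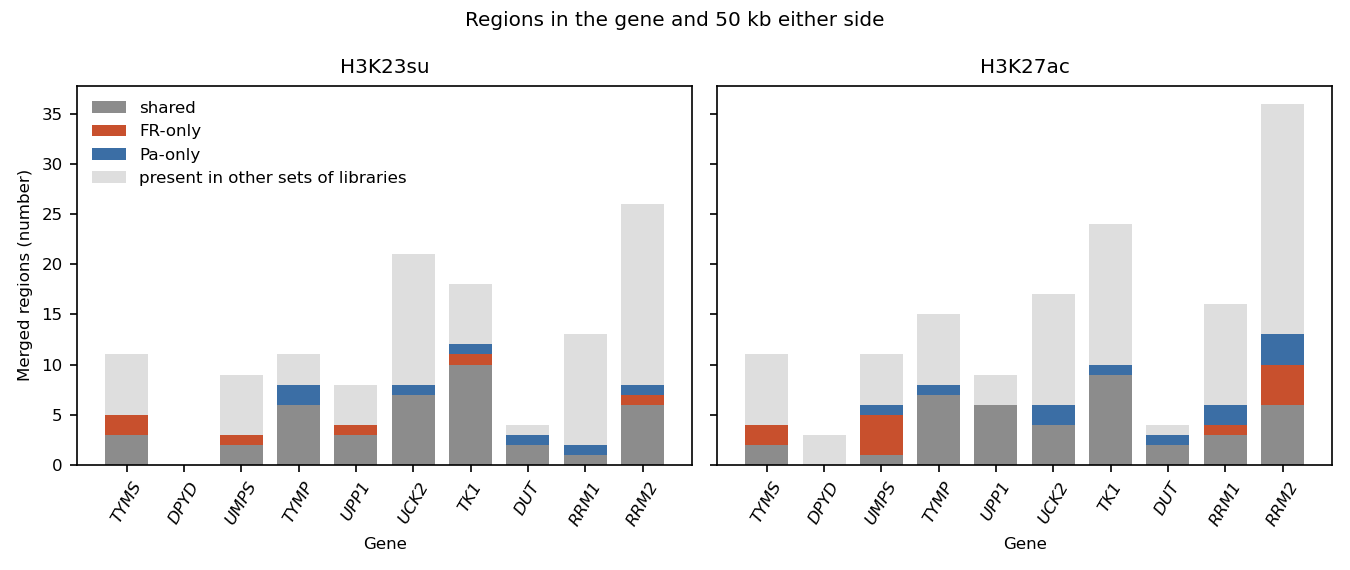
Number of merged regions in each gene and 50 kb either side (vertical axis) for the 10 genes (horizontal axis), stacked by class, shared in dark grey, FR-only in orange, Pa-only in blue and present in other sets of libraries in light grey, H3K23su on the left and H3K27ac on the right. DPYD has 0 H3K23su regions. RRM2, whose gene record extends well past the canonical transcript, has the most regions, 26 for H3K23su and 36 for H3K27ac.

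Overlapping regions of both marks that were specific to the same line lay near 4 members, FR-only at UMPS and RRM2 and Pa-only at DUT and TK1. No share over all genes stands beside this count, so it is a description only. Printed here, on the plus strand of hg19, are the bases covered by every peak of the line at 3 of them, cut to the central 300 bases where longer, since there both marks were listed in the same line alone. The FR-only H3K23su regions nearest to TYMS and UPP1 are added for the drug's target and the phosphorylase. Capitals mark the same spellings as above.
UMPS FR-only, both marks, chr3:124505541-124505840: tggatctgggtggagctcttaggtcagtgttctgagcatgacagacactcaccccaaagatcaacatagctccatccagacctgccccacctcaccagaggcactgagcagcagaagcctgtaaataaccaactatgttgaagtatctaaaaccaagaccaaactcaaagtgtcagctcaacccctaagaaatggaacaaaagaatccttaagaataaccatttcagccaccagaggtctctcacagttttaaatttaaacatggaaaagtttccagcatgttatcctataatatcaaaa
RRM2 FR-only, both marks, chr2:10368929-10369228: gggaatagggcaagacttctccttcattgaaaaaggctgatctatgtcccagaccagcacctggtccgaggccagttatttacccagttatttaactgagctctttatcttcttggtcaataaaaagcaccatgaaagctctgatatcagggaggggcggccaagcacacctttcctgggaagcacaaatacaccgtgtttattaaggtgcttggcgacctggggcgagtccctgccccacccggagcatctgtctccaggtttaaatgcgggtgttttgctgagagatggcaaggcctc
DUT Pa-only, both marks, chr15:48680801-48680944: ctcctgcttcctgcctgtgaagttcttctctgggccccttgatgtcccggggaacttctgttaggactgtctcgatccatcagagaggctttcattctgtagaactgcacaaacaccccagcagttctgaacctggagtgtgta
TYMS FR-only, H3K23su, chr18:649476-649621: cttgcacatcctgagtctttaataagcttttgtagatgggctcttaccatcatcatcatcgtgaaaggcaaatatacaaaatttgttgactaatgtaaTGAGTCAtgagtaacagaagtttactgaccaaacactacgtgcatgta
UPP1 FR-only, H3K23su, chr7:48124607-48124795: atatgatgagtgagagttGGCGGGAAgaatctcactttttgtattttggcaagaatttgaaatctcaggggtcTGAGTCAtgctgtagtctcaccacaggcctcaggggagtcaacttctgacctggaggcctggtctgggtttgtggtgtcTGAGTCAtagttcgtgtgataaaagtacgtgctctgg

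The UMPS region lay 56372 bp downstream of the TSS, in an intron of ITGB5, an integrin subunit. Its H3K23su peaks in HCT15-FR stood at percentiles 57.0 and 28.8 of their lists and its H3K27ac peaks at 70.6 and 55.3, in chr3:124505337-124506005 and chr3:124505235-124506186. A second FR-only H3K27ac region, 63181 bp downstream, overlay an H3K23su region shared by both lines. The H3K27ac length over UMPS and 50 kb either side was 1865 and 1789 bp in HCT15-Pa against 3082 and 3919 bp in HCT15-FR. This was 1.92 times as much, a difference of 1673.5 bp at percentile 78.9 of all genes. Over such windows 48.4% of all genes had more H3K27ac length in both HCT15-FR libraries. A Pa-only H3K27ac region lay 45563 bp downstream.

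The RRM2 region was intergenic, 106020 bp downstream of the TSS (chr2:10368313-10369460 for H3K23su and chr2:10368576-10369763 for H3K27ac). The nearest TSS of a protein-coding gene was that of HPCAL1, 74144 bp from the H3K23su region, so the region cannot be assigned to RRM2. It falls in the window because the RRM2 gene record runs to 10351851. The H3K23su peaks of this region stood at percentiles 68.7 and 77.0, with scores of 5.39 and 5.98, and its H3K27ac scores were 8.05 and 7.19. The H3K27ac length in the RRM2 gene record, which extends well past the canonical transcript, was 4329 and 3174 bp in HCT15-Pa and 6245 and 6046 bp in HCT15-FR, at percentile 97.1 of all genes. H3K23su in the gene record overlapped between the lines (3948 and 2707 against 3683 and 2482 bp).

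The DUT region was intergenic, 57123 bp downstream, with H3K23su percentiles of 92.1 and 78.0 and H3K27ac percentiles of 65.2 and 83.7 in HCT15-Pa. Over the whole DUT window H3K23su covered 2985 and 2736 bp in HCT15-Pa against 2418 and 2007 bp in HCT15-FR, and H3K27ac 2333 and 2297 against 1969 and 1619 bp. Neither pair overlapped. The Pa-only region at TK1 lay over a coding exon near the 3′ end of the gene (chr17:76170617-76171072 and chr17:76170510-76171219), with H3K23su percentiles of 7.54 and 5.51, near the bottom of their lists.

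At TYMS the FR-only H3K23su region shown above lay 8200 bp upstream, in an intron of CLUL1, with percentiles of 22.6 and 67.7 and with no H3K27ac region over it. An FR-only H3K27ac region 45980 bp downstream, in an intron of ENOSF1, lay over an H3K23su region shared by all 4 libraries. That H3K23su region stood at percentiles 7.65 and 39.2 in HCT15-Pa and 65.4 and 82.2 in HCT15-FR. At UPP1 the FR-only H3K23su region was 4130 bp upstream and lay over a shared H3K27ac region.

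AP-1 spellings occurred in 3 of the 6 FR-only H3K23su regions of the members, those of TYMS, UPP1 and TK1, and in 0 of the 7 Pa-only regions. Among all regions they occurred in 26.7% of FR-only, 14.8% of Pa-only and 28.4% of shared H3K23su regions. For H3K27ac the members' counts were 3 of 11 FR-only and 1 of 11 Pa-only, against 30.7% and 15.7% of all regions. The other families searched were also counted in the members' 6 FR-only H3K23su regions. E2F spellings occurred in 2 of the 6, against 1.98% of all such regions. NF-Y occurred in 1, against 48.0%, SP/KLF in 1, against 17.7%, and CRE in 0, against 0.349%. With so few member regions these counts are a description.

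**Figure D5:**
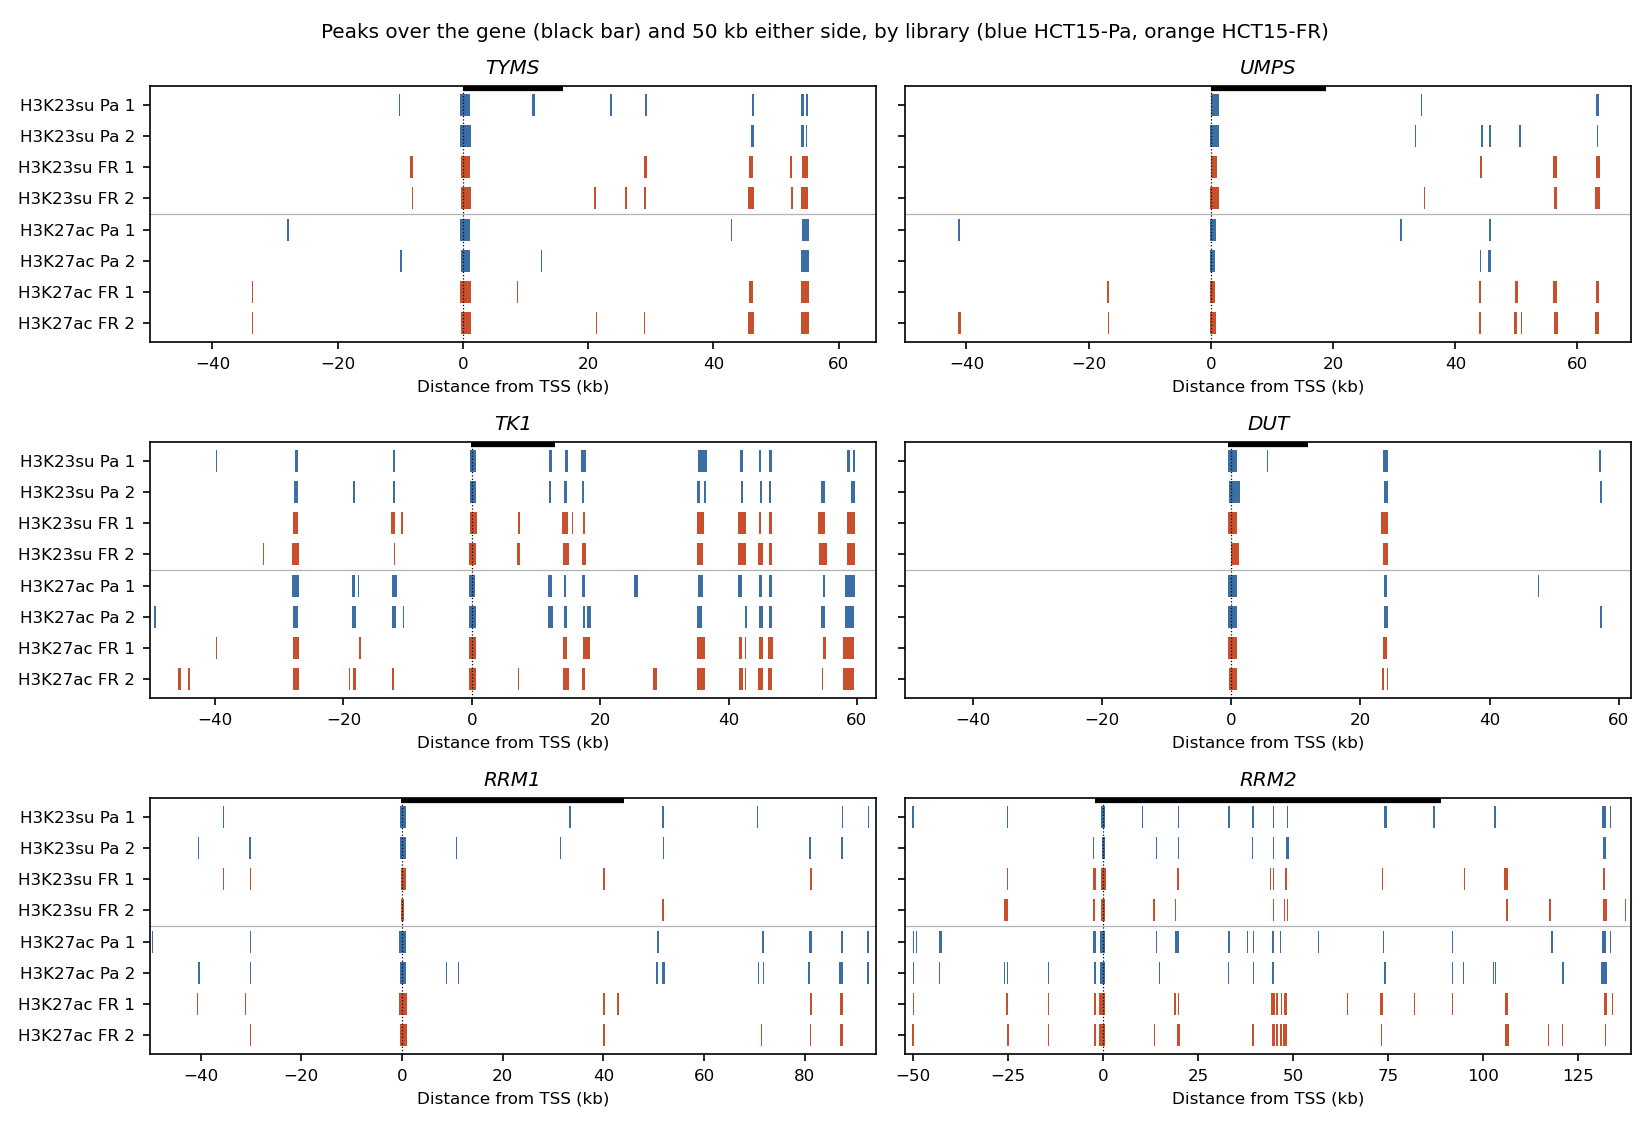
Peaks over 6 genes and 50 kb either side, as bars at their distance from the TSS in kb (horizontal axis) with 1 line for each of the 8 libraries (vertical axis), blue for HCT15-Pa and orange for HCT15-FR, the gene as a black bar. The FR-only regions of both marks stand at 56372 bp for UMPS and 106020 bp for RRM2, and the Pa-only region of DUT at 57123 bp.

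Summed over the gene and 50 kb either side, H3K23su length was higher in both HCT15-FR libraries for 4 members (TYMS, UMPS, UPP1 and TK1), against 48.2% of all genes, and lower for 2 (DUT and RRM1), against 12.1%. H3K27ac was higher for 4 (TYMS, UMPS, UPP1 and RRM2), against 48.4%, and lower for 4 (DPYD, TYMP, DUT and RRM1), against 13%. Of the 25 other genes, 14 were higher and 2 lower for each mark. The H3K23su rise at TYMS lay outside the gene. In the gene itself H3K23su covered 1543 and 1257 bp in HCT15-Pa and 1201 and 1246 bp in HCT15-FR. The downstream 50 kb, which reach over ENOSF1, differed by 1523 bp. The members' median difference was 365.5 bp for H3K23su, against 546 bp for all genes, and 526 bp for H3K27ac, against 514.5 bp. With 25 kb either side the counts that were higher came to 1 for H3K23su and 1 for H3K27ac, against 43.3% and 43.5% of all genes. Among the members counted, H3K23su at UMPS turned to -186 bp with 25 kb either side and to -319 bp in the stronger 50% of each list. H3K27ac turned to 515 bp at TYMP and 565.5 bp at DUT with 100 kb either side. H3K27ac at DPYD, which enters through 3 regions each listed in 1 HCT15-Pa library, was 0 bp in the stronger 50% of each list. In those lists 1 member was lower for H3K27ac, against 13.4% of all genes.

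The window of TK1 had 6934 and 5794 bp of H3K23su in HCT15-Pa and 10138 and 10422 bp in HCT15-FR, a difference of 3916 bp at percentile 96.4 of all genes (exact permutation p = 0.333). Most of it lay outside the gene, since the downstream 50 kb, which hold SYNGR2, TMC6 and TMC8, differed by 3181.5 bp and the gene itself by 95.5 bp with overlap. H3K27ac over the same window was 9905 and 10082 bp against 9936 and 11209 bp, and the lines overlapped.

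RRM1 had less of both marks over its window in HCT15-FR. H3K23su covered 2940 and 3092 bp in HCT15-Pa and 1938 and 1153 bp in HCT15-FR (percentile 2.22), and H3K27ac 4081 and 4954 bp against 3616 and 3389 bp (percentile 5.38). In the gene the marks went opposite ways, H3K23su from 1217 and 1285 to 1120 and 592 bp and H3K27ac from 876 and 1191 to 1819 and 1656 bp. Downstream of the gene both were shorter in HCT15-FR, with differences of -571.5 bp for H3K23su and -1428 bp for H3K27ac. With 25 kb in place of 50 kb either side the H3K27ac difference was 122.5 bp, so its direction rests on the outer part of the window.

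The other genes of the pathway fixed for naming were those with a line-specific region of each mark in the same direction and those without any TSS peak. The regions of the marks were counted anywhere in the window and need not lie at the same place, and by this looser count TYMS, UMPS and RRM2 were the members with FR-only regions of each mark and TYMP, UCK2, TK1, DUT, RRM1 and RRM2 those with Pa-only regions of each. For this looser count too no share over all genes is given, so these names are a description only. The windows of the other pathway genes held FR-only regions of each mark at CAD, which starts de novo synthesis, UCKL1, CDA, which deaminates cytidine, DCK and TK2, which phosphorylate deoxynucleosides, CMPK1, SAMHD1, a dNTP hydrolase, and UPB1. Pa-only regions of each mark lay in the windows of UCKL1, TK2, UPB1 and SLC29A1, a nucleoside transporter, so 3 genes had both kinds. UCKL1, a relative of UCK2, had no H3K23su at its TSS in HCT15-Pa and 761 and 858 bp in HCT15-FR, and H3K27ac went from 1302 and 1128 to 1801 and 1494 bp. At SAMHD1, H3K23su over the window was 3497 and 3061 bp in HCT15-Pa and 6492 and 5669 bp in HCT15-FR, and H3K27ac 4176 and 5298 against 6907 and 7576 bp.

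UPP2, the second uridine phosphorylase, and DPYS, the enzyme that acts after DPYD, had no TSS peak of either mark in any library. UPB1, the last enzyme of that breakdown, had no H3K23su at its TSS and H3K27ac of 224 and 507 bp in HCT15-Pa against 0 and 146 bp in HCT15-FR. Over the DPYS window H3K27ac was 1634 and 1048 bp in HCT15-Pa and 393 and 292 bp in HCT15-FR, without overlap, and H3K23su was listed in 1 library, with 432 bp.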

How the data were processed

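HCT15-Pa and HCT15-FR cells were profiled by CUT&Tag for H3K23su and H3K27ac, 2 libraries per line and mark, grouped by their titles. By the study's methods and the submitters' processing notes, the authors aligned reads to hg19 with Bowtie2, used SAMtools to filter them and ran MACS2 on each library, with the broad option for H3K27ac. HOMER 4.10 and deepTools are also named. The deposited lists give chromosome, start, end, name and the −log10 of the MACS2 P value. They hold no reads, coverage or summits, so depth is unknown and no interval could be given for a single list. The members and gene lists were chosen with earlier results of these data known.

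Genes and canonical TSSs came from GENCODE 44 mapped to GRCh37. All peaks lay within its chromosome lengths, and 279 genes without a canonical tag used the 5′ end of the gene record. Peak length was summed within 2 kb of the TSS, in the gene, and in the gene with 50 kb either side. Regions were peaks merged over the 4 libraries of a mark, present with 1 bp of overlap. Lengths were compared by two-sided exact permutation tests, adjusted over all 20098 genes by the Benjamini-Hochberg method. Alternatives were the stronger 50% of each list, a common minimum score, equal list lengths, leaving out each library, the replicate block, TSS windows of 1 and 5 kb, the 5′ end of the gene record, flanks of 25 and 100 kb, 50% of a region covered and merging within 500 bp. All 10 members are named, other pathway genes by the rule given with them. Computations ran in Python 3.11.15 with numpy 2.4.6 and scipy 1.17.1. Sequences were read with samtools 1.23.1 and pysam 0.24.0 and figures drawn with matplotlib 3.10.9. The computations were tested on simulated data.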

Additional observations from a re-analysis of the deposited data

Results flagged for a closer look

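At the TSS of RRM1, every HCT15-FR library had less H3K23su length than every HCT15-Pa library and more H3K27ac length, so the lines differed in opposite directions for the marks. The differences, HCT15-FR minus HCT15-Pa, were -492.5 bp for H3K23su and 252 bp for H3K27ac. The difference between the marks was not tested. With each library left out in turn the H3K23su difference lay between -606.5 and -378.5 bp and the H3K27ac difference between 185.5 and 318.5 bp. H3K27ac was called with the broad option and H3K23su without it, and the part of this in the result was not tested.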

How the results depend on the processing

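A common minimum score, the 5′ end of the gene record, 50% of a region covered and merging within 500 bp moved no count of members by over 1.5 times and reversed no single-gene difference to which they apply. With the stronger 50% of each list, 3 members had a Pa-only H3K23su region, against 20.8% of all genes. Over the window in HCT15-FR, 2 members had more H3K23su length, against 44.4%, and 1 less H3K27ac length, against 13.4%. In the same lists the H3K23su window differences (HCT15-FR minus HCT15-Pa) reversed to -319 bp at UMPS and -222 bp at TYMP. With equal list lengths they reversed to -10.5 bp at TYMP and -335.5 bp at UCK2. TSS windows of 1 kb gave 8 bp for H3K23su at UMPS and -33.5 bp for H3K27ac at TYMS, and windows of 5 kb gave 48.5 bp for H3K27ac at UPP1. Flanks of 25 kb left 1 member higher and 1 lower for H3K23su and 1 higher for H3K27ac, with H3K23su at -186 bp at UMPS and H3K27ac at -274.5 bp at TK1 and 122.5 bp at RRM1. Flanks of 100 kb left 2 members lower for H3K27ac, with 515 bp at TYMP and 565.5 bp at DUT. No share of all genes stands beside the counts of lower members at these flanks, so they are a description only. Narrower or wider windows hold other regions by construction, and for the other changes the cause was not tested.

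With 1 library left out in turn, the members lower in HCT15-FR at the TSS numbered 2 to 4 for H3K23su and 3 to 5 for H3K27ac, and those with an FR-only H3K27ac region 6 to 8, since a region then needs 1 library of a line. The shares of all genes change with the library left out as well, so these counts do not single out the members. H3K23su at the TSS ranged from -55 to 9 bp at TYMS and from -293 to 67 bp at UMPS, and H3K27ac at the TSS from -46.5 to 74.5 bp at TYMS, -44.5 to 24.5 bp at UPP1 and -2.5 to 15.5 bp at UCK2. H3K23su over the window ranged from -846 to 1042 bp at TYMP, -271 to 531 bp at UCK2 and -158.5 to 2282.5 bp at RRM2, and H3K27ac from -16.5 to 962.5 bp at UCK2 and -57.5 to 1215.5 bp at TK1. The replicate block leaves each difference as it is, for example -492.5 bp for H3K23su at the TSS of RRM1, with an exact sign-flip p of 0.5, the smallest that 2 pairs allow. The labels share replicate numbers between the lines without saying what they mark. Neither test can reach the usual threshold with these libraries, so there was no call that the block could change.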
